A study of Tupaia belangeri with 6 samples.

Results

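The abundance tables of the tree shrew prefrontal cortex list 1475 loci whose name is a ribosomal protein symbol followed by "li" and a number, such as RPS2li13. These li loci belong to 75 gene families. Of the 1475 loci, 305 reached at least 0.1 TPM (a level scaled for transcript length and library size) in 3 or more of the 6 animals, and they are described here. They were chosen by name and by that level, so their levels are given as a description without a test. The tables hold 95863 loci in all, of which 30270 passed the same filter.

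The samples came from adult Chinese tree shrews, *Tupaia belangeri*, a small mammal close to the primates. Polyadenylated RNA of the prefrontal cortex was sequenced from 3 females, numbered 1, 3 and 4, and 3 males, numbered 1, 4 and 5, each a separate animal, and no treatment is listed for either sex. The males are listed with greater ages than the females, so sex and age cannot be told apart in this design. A lower level in bulk tissue can mean fewer cells of a type or less RNA per cell, and these cannot be told apart either. The libraries also stood apart by markers of the striatum, a region below the cortex. Of 5 such markers 3 were listed (DRD1 and RGS9 under the plain name, ADORA2A as an li locus), and they summed to 143, 101 and 8.64 TPM in females 1, 3 and 4 and to 138, 9.97 and 7.62 TPM in males 1, 4 and 5. Females 1 and 3 and male 1 were thus high, and female 4 and males 4 and 5 low. In the first 3 animals alone 210 li loci reached 0.1 TPM in each, and in the last 3 alone 192 did.

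Ribosomal proteins are the protein components of the ribosome. Those named RPL belong to the large subunit, which forms the peptide bond, and those named RPS to the small subunit, which reads the messenger RNA. In most mammals a single functional gene with introns encodes each of them. Because their messenger RNAs are abundant, they have also been copied back into the genome many times as processed pseudogenes, which lack introns and are mostly about as long as the messenger RNA. Whether a locus named as a copy is a processed pseudogene or the functional gene therefore matters for any reading of its level.

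The names did not separate parent genes from copies in these tables. A locus with the plain symbol, without li, was present in 61 of the 75 families. Of these 61 plain-named loci, 16 passed the filter, 45 did not, and 37 were listed at 0 TPM in all 6 animals. In 51 of the 61 families (83.6%) at least 1 li locus had a higher mean TPM than the plain-named locus. The same was true in 857 of 1807 other gene families that had both kinds of name (47.4%). Since the highest of all li loci of a family is compared here, more li loci raise this share. The number of li loci per family was not matched. Of the 305 expressed li loci, 233 were above the plain-named locus of their family, 57 were below it, and 15 had none. The li numbers followed position: 1208 of 1400 neighbouring numbers (86.3%) were in order of chromosome name and coordinate, and the plain-named locus came before all of its li loci in 53 of 61 families. Of the plain-named loci, 40 lay on chromosome 1. The label of gene-like copy is therefore not used below as a statement of what a locus is, and these loci are called li loci of ribosomal protein families.

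The expressed li loci were unevenly spread over the families. Expressed members were found in 58 of the 75 families, with 226 of the 1143 large subunit loci and 79 of the 332 small subunit loci. RPL21 had most, with 50 expressed of 179 li loci. RPL6 followed with 37 of 286 and RPL7 with 31 of 159. These 3 families of large subunit proteins held 38.7% of the expressed loci. RPL31 had 12 of 66 and RPS3A had 11 of 71, whereas 16 families had just 1. On the map, 281 expressed loci were autosomal, 15 were X-linked and 9 lay on unplaced contigs. A smaller share of the ribosomal li loci passed the filter (20.7%) than of the 7397 li loci of other gene families (31.2%). Of the 1170 that did not pass, 899 were listed at 0 in all 6 animals and 271 were above 0 in at least 1 animal.

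**Figure D1:**
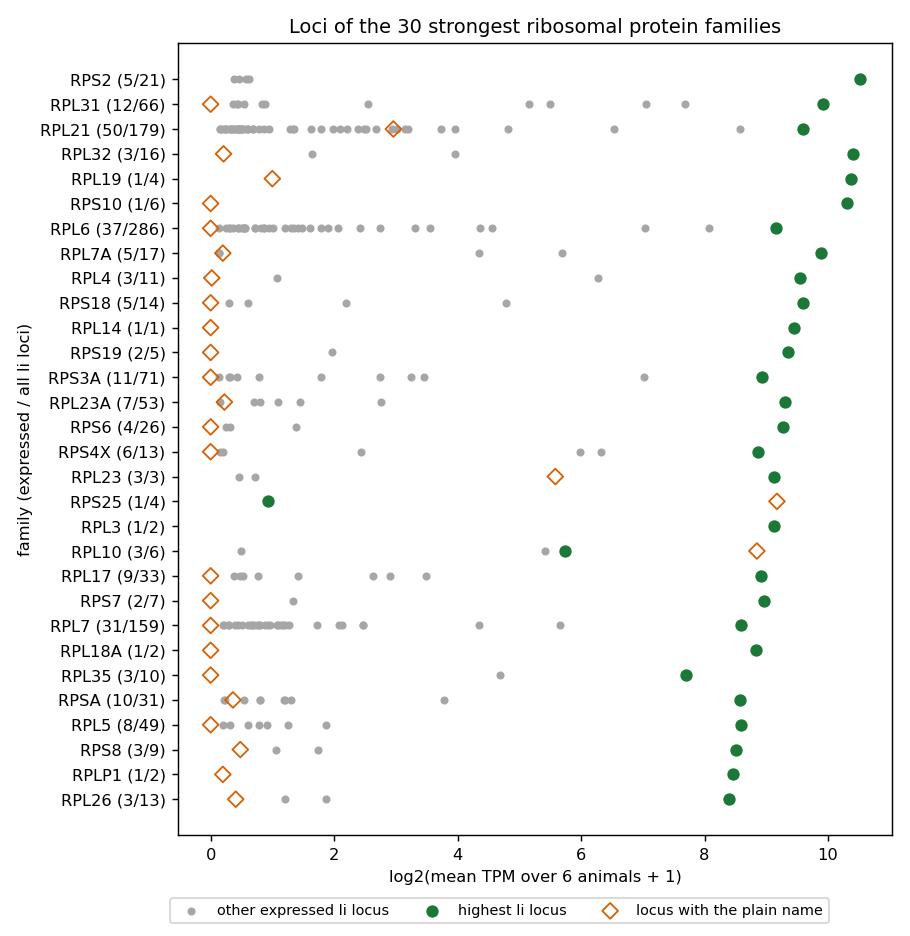
Level of each expressed li locus and of the plain-named locus, as log2 of the mean TPM over the 6 animals plus 1, for the 30 ribosomal protein families of highest summed level, with the numbers of expressed and of all li loci in brackets. In most families the highest li locus (filled circle) lies far above the plain-named locus (open diamond) and the other li loci (grey), and RPS25 and RPL10 show the opposite order.

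A few loci carried nearly all of the signal. The mean TPM was under 1 in 136 expressed li loci, 1 to 10 in 89, 10 to 100 in 34 and 100 or more in 46. The top 15 held 55.6% of the li TPM and the top 50 held 95.002%, while the 136 loci under 1 TPM together held 0.249%. Detection was uneven at the low end. At least 0.1 TPM was reached in all 6 animals by 171 loci, in exactly 5 by 40, in exactly 4 by 50 and in exactly 3 by 44. In at least 1 animal 115 of the 305 were listed at 0.

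The highest li locus was RPS2li13, on chromosome 2 at 82057921 to 82061618 of the TS_3.0 genome. RPS2 is a small subunit protein near the messenger RNA entry channel. RPS2li13 had 1548 TPM in female 1, 1228 in female 3 and 1942 in female 4, and 1357, 1575 and 1143 TPM in males 1, 4 and 5, the order kept for all values below. The ranges of the sexes overlapped, and no plain-named RPS2 locus was listed. RPL32li7, of a large subunit family on chromosome 23, had 1096, 957 and 1546 TPM in the females and 1961, 1378 and 1150 TPM in the males. RPL19li1, on chromosome 15, had 1375, 1054 and 1724 TPM in the females and 1621, 1210 and 968 TPM in the males. RPS10li3, of a small subunit family on chromosome 3, had 1325, 1140 and 1637 TPM in the females and 1231, 1288 and 978 TPM in the males. In each of these 4 loci the sexes overlapped, and each held 98.8% to 99.9% of the TPM of its family.

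The plain-named loci of these families were at or near 0. Their mean TPM was 0.156 for RPL32 and 0.999 for RPL19, and RPS10 was listed at 0 in every animal. RPL31li30 on chromosome 14 had 1074, 930 and 1474 TPM in the females and 624, 1048 and 658 TPM in the males. RPL7Ali3 on chromosome 2 had 1064, 857 and 1242 TPM in the females and 813, 983 and 713 TPM in the males. Both are loci of large subunit families. The remaining 9 of the top 15, by mean TPM, were RPL21li115 at 769, RPS18li11 at 768, RPL4li7 at 748, RPL14li1 at 695, RPS19li3 at 650.0, RPL23Ali12 at 633, RPS6li10 at 615, RPL6li179 at 570 and RPL23li1 at 559. RPS6 is the small subunit protein best known as a substrate of S6 kinase, and RPS19 is the one first linked to Diamond-Blackfan anaemia.

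**Figure D2:**
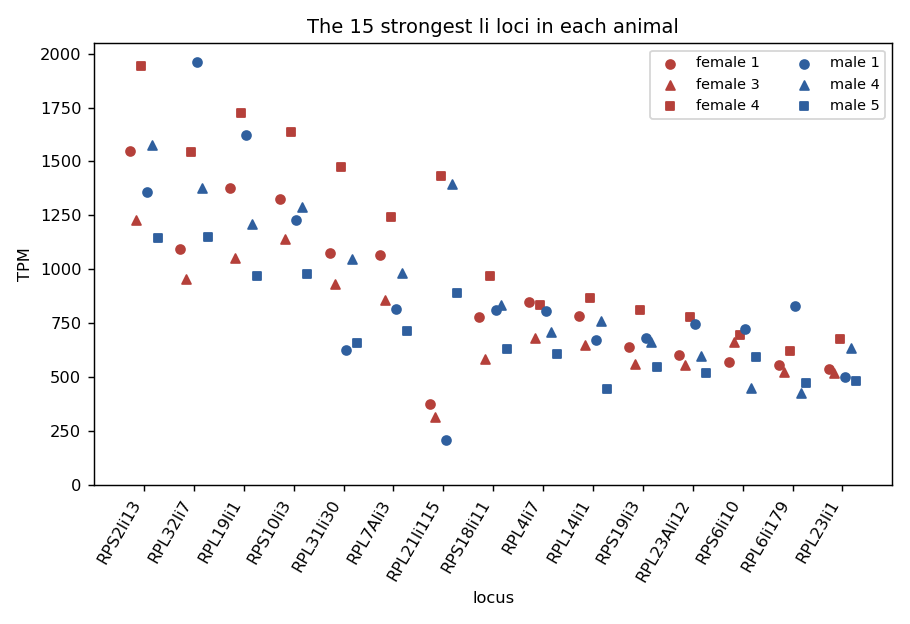
TPM, on a linear axis, of the 15 li loci of highest mean level in each of the 3 females (red) and 3 males (blue), with a symbol for each animal. In all 15 loci the values of females and males overlap, and RPL21li115 has the lowest value drawn, 209 TPM, beside 1432 TPM in another animal.

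In most families the signal came mainly from 1 locus. In 50 families the summed TPM of the named loci was 10 or more, and the top li locus held at least 90% of it in 31 families, 50% to 90% in 9 and under 50% in 10 (median 95.001%). The highest li locus of each of the 58 families with an expressed member is called the lead locus here. The lead loci ranged from 0.264 to 1465 TPM, with a median of 265 TPM, and held 88.7% of the li TPM. The other 247 expressed loci had a median of 0.824 TPM and a maximum of 382 TPM. Since the lead was picked by its level, this contrast is fixed by the choice and has no test.

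The plain-named locus was the highest of its family in 6 families, RPS25, RPL10, RPS21, RPL13, RPL35A and RPL11. RPS25, a small subunit protein, was the highest plain-named locus with a mean of 576 TPM against 0.896 TPM for its top li locus RPS25li4. RPL10, a large subunit protein that joins late in subunit assembly, had 460 TPM at its plain-named locus on chromosome 10. That locus spans 710 bp and RPL10li5 spans 645 bp, both short by the 1500 bp limit used below. The X-linked RPL10li5, at 95583599 to 95584243, had 40.9, 39.8 and 59.9 TPM in the females and 62.2, 62.5 and 49.7 TPM in the males. RPS21 had 272 TPM at its plain-named locus, and its top li locus was listed at 0. These families run against the general order.

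The ribosome itself is known to need nearly all of its proteins, which gives a check of completeness. Of 80 cytosolic ribosomal protein genes, the plain-named and li loci summed to 10 TPM or more in 53, to 1 to 10 TPM in 9 and to under 1 TPM in 6. RPLP0, RPS9 and RPS15 were among the low ones. In 8 genes, among them RPL8, RPL24 and RPS13, every named locus was listed at 0, and 4 (RPL28, RPL41, RPS14 and RACK1) were not listed under these names. Since these are core parts of the ribosome, a value of 0 for a named locus here says only that it is listed at 0. Reads from near-identical loci cannot be told apart with certainty, how multiply mapped reads were handled is not given in the sources used here, and neighbouring or overlapping transcripts may have been merged into a locus of another name.

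Among 16 other translation genes, 15 had a plain-named locus, of which 8 passed the filter, and 13 had loci of both kinds. The li locus was the higher in 6 of these 13 (46.2%), near the 47.4% of other families, so the genes below are single examples. TPT1, which encodes the translationally controlled tumour protein, had 0.918 TPM at its plain-named locus against 783 TPM at its highest li locus. EEF1A1, the main elongation factor that delivers transfer RNA, was listed at 0 at its plain-named locus against 266 TPM at its highest li locus. EEF1A2, its neuronal and muscle form, had 973 TPM under its plain name. Of 8 paralogue genes of ribosomal proteins, such as RPL10L, 6 had a plain-named locus and 0 of these passed the filter. The tissue label was checked in the same tables: neuronal markers summed to 7732 to 10133 TPM per animal, astrocyte markers to 1404 to 2184, microglia to 66.7 to 112, endothelium to 318 to 483 and choroid plexus to 3.23 to 12.001, whereas the striatum markers given above were uneven.

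Genomic span, from the first to the last base of a locus, was used to describe the li loci, because exons are not listed. The bounds come from transcripts assembled from these same reads and joined to the reference annotation. A locus with reads can therefore be extended or merged with neighbours, so span and level are not independent. A processed copy is mostly about as long as its messenger RNA, so a limit of 1500 bp, chosen after the spans were seen, was used to mark short loci. A long span does not show that a locus has introns. The expressed li loci had a median span of 6199 bp, against 839 bp for the li loci under the filter, 3618 bp for the plain-named loci and 10043 bp for all tested loci. The shortest was RPL21li205 at 192 bp and the longest was RPL17li8 on chromosome 12 at 516346 bp. Short loci made up 119 of the 305 expressed (39.0%) and 699 of the 1170 under the filter (59.7%). Put the other way, 14.5% of the 818 short li loci passed the filter and 28.3% of the 657 long ones.

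Level and span went together, and because span depends in part on the assembled reads, this is a description without a test. The 119 short expressed loci had a median of 0.746 TPM and held 4.87% of the li TPM, and 12 of them reached 10 TPM. The 186 long expressed loci had a median of 2.89 TPM and held 95.1%, and 68 of them reached 10 TPM. Of the 58 lead loci 5 were short (8.62%), against 114 of the other 247 (46.2%). The 5 short leads were RPL6li179, RPL10li5, RPL30li8, RPL34li1 and RPLP0li3. RPL6li179, a 941 bp locus on chromosome 28 at 67592 to 68532, stood apart among them. It had 555, 523 and 618 TPM in the females and 827, 427 and 471 TPM in the males, and held 53.2% of the RPL6 family. RPL6li24, a 337620 bp locus on chromosome 1, followed in that family with a mean of 267 TPM.

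**Figure D3:**
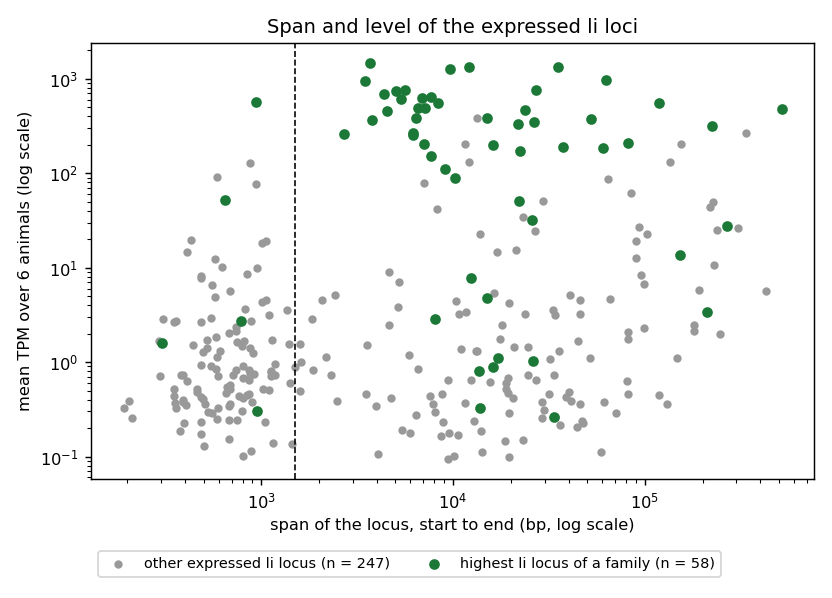
Mean TPM over the 6 animals against genomic span in bp, both on log axes, for the 305 expressed li loci, with the highest li locus of each family in green and a dashed line at 1500 bp. The loci at 100 TPM or more lie to the right of the line apart from RPL6li179 and RPS3Ali6, and loci under 1 TPM lie on both sides of it.

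Some li loci lay within other named loci. Of the short expressed loci, 13 (10.9%) were inside another named locus on the same strand and 24 (20.2%) on the opposite strand, against 10.01% and 23.9% of the short loci under the filter. RPL21li47 lay within NCALD, RPL6li128 within LYRM1 and RPS23li4 within TAT. Of the long expressed loci, 5 (2.69%) were inside a named locus on the same strand and 36 (19.4%) on the opposite strand, against 11.7% and 23.99% of the long loci under the filter. In turn 19 long expressed loci, among them RPL31li30, RPL23li1 and RPL17li8, contained another named locus, and 0 short ones did. For loci that overlap others the reads may belong to either, and whether the libraries kept strand is not given in the sources used here.

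At the edge of the filter, RPS18li15 and RPL6li169 were just inside, with a third-highest value of 0.104 and 0.105 TPM. RPS18li15 had 0.433, 0 and 0 TPM in the females and 0.104, 0 and 0.833 TPM in the males. RPL7li74 and RPS6li27 were just outside, with a third-highest value of 0.0960 and 0.0949 TPM. The deposited coverage times the span, divided by the 150 bp read length, gives an upper limit for the reads behind a value, since exons cannot be longer than the span. The highest animal had at most 2.7 reads for RPS18li15 and at most 1.1 for RPL7li74, so the 2 sides of the edge rest on a few reads at most for such short loci.

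The li loci differed in how evenly they were measured over the animals. The spread is given as the SD of log2(TPM + 1) within the sexes, and its median was 0.394 for the expressed li loci, 0.434 for the 16 plain-named loci that passed the filter and 0.471 for all tested loci. With a pseudocount of 0.1 the li value was 0.818, and in the 3 animals high in striatum markers it was 0.222. It was 0.303 for the lead loci and 0.422 for the others, and 0.454 for the short and 0.343 for the long ones. Spread depends on level, so loci were also compared within bands of mean TPM, chosen after the values were seen. From 10 to 100 TPM the median was 0.918 for 10 short li loci and 0.317 for 24 long ones, beside 0.319 for all tested loci and 0.563 for all tested loci under 1500 bp. From 1 to 10 TPM the short and long li loci had 0.558 and 0.549, beside 0.775 for all tested loci, 0.997 for all tested loci under 1500 bp and 0.419 for loci with a strand and a gene name. At 100 TPM or more all li loci had 0.311, beside 0.270 for all tested loci and 0.263 for loci with a strand and a gene name. The li median was above that of the loci with a strand and a gene name in the other bands too, at 0.325 against 0.308 under 1 TPM, 0.556 against 0.419 from 1 to 10 TPM and 0.339 against 0.311 from 10 to 100 TPM. All tested loci had 0.401 under 1 TPM. Plain-named loci had 0.304 under 1 TPM (6 loci), 0.790 from 1 to 10 (2 loci), 0.434 from 10 to 100 (2 loci) and 0.409 at 100 or more (6 loci). Loci are not replicates, and these medians were not tested.

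**Figure D4:**
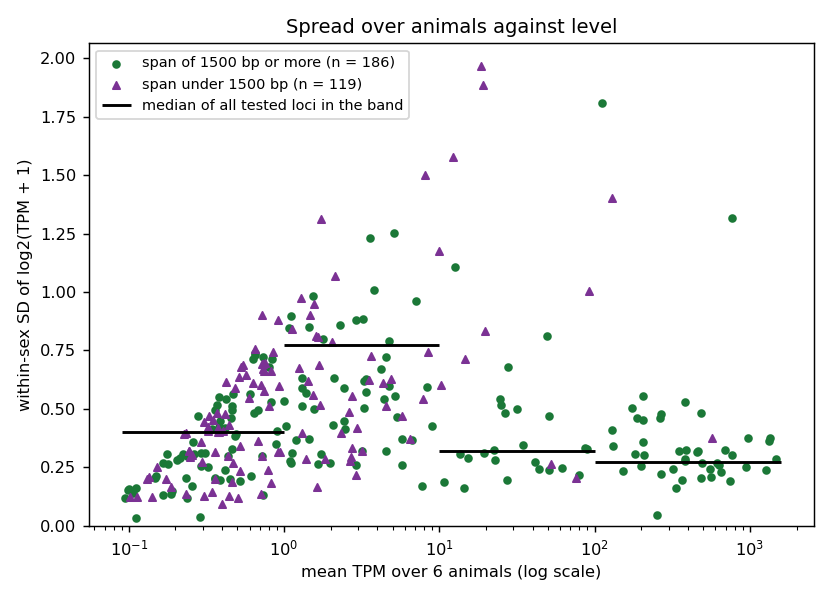
Within-sex SD of log2(TPM + 1) against mean TPM over the 6 animals, on a log axis, for 186 long and 119 short expressed li loci, with black lines at the median of all tested loci in each band of mean TPM. Between 10 and 100 TPM most short loci lie above the line at 0.319, and the long ones lie on both sides of it.

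The uneven loci were mostly high in 1 or a few animals. RPS23li4, a 1008 bp locus of a small subunit family on chromosome 21, had 1.71, 1.44 and 1.21 TPM in the females and 99.9, 1.58 and 4.84 TPM in the males. Male 1 alone was high. RPL7li39, of 1064 bp, had 61.7, 4.36 and 3.57 TPM in the females and 7.12, 3.09 and 35.7 TPM in the males, with female 1 and male 5 high. RPL37li2 had 111, 44.0 and 3.57 TPM in the females and 99.0, 310 and 99.0 TPM in the males, and is the exception among the 5 most uneven loci in being long, at 9056 bp. RPL37li2 also held nearly all of its family (99.98%), so the whole RPL37 signal varied with it. RPL21li124 and RPL21li81, of 577 and 483 bp, completed the 5, with ranges of 0.557 to 21.6 and 0.868 to 24.9 TPM.

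The steadiest loci at 1 TPM or more were RPL15li11, RPL26li5, RPL21li93, RPS6li5 and RPL37Ali2. RPL15li11, of a large subunit family on chromosome 28, had 263, 272 and 264 TPM in the females and 247, 237 and 228 TPM in the males, a within-sex SD of 0.045 on the log2 scale. The females were all above the males for this locus, which limma did not call. RPS6li5 is the short one among them, at 751 bp, and had 1.23 to 2.30 TPM with at most 7.7 to 17.7 reads behind its values.

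The summed level of the li loci did not separate the sexes. The expressed li loci summed to 23767, 21128 and 28896 TPM in the females and to 25978, 24355 and 19792 TPM in the males. Female 4 was highest and male 5 lowest, and the groups overlapped. The mean was 24597 ± 3950 in females and 23375 ± 3207 in males (SD, n = 3 each), a difference of 1222 TPM with p = 0.8 by an exact two-sided permutation test. With 3 animals a group this test cannot go below 0.1. The direction turned to −928 without female 4 and to −569 without male 5. It was −3531 among the 3 animals high in striatum markers and 6823 among the 3 low ones, where 1 sex has a single animal, so no test was made. The li loci made up 2.45%, 2.19% and 2.99% of all TPM in the females, and 2.73%, 2.54% and 2.07% of it in males.

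The plain-named loci summed to 1906, 1558 and 2545 TPM in the females and 2045, 2478 and 1701 TPM in the males (difference −72.0, exact permutation p = 0.8). Its sign turned without female 3 (151), without male 4 (130) and in FPKM (1.33). The li loci therefore held 92.6%, 93.1% and 91.9% of the ribosomal protein TPM in the females, against 92.7%, 90.8% and 92.1% in males, a difference of 0.688 percentage points (exact permutation p = 0.5), which was 0.391 without female 3, 0.145 without male 4 and 1.11 without male 1. Short loci took 5.01%, 3.97% and 3.88% of the li TPM in the females, against 6.98%, 3.91% and 5.54% in males (exact permutation p = 0.3). Males 1 and 5, the highest for that share among the males, were also the animals with most TPM in loci listed without a strand, at 5.16% and 7.88% of all TPM against 2.30% to 3.33% in the other animals. The part of those loci in the result was not tested.

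No single li locus was called between the sexes. With limma on log2(TPM + 1), all 305 were tested among 30238 loci, 0 had a Benjamini-Hochberg adjusted p under 0.1, and the lowest adjusted p was 0.926. Over all tested loci 5 were called (0.0165%). At an unadjusted p under 0.05, 5 li loci were higher in females (1.64%, beside 2.45% of all tested loci) and 16 were higher in males (5.25%, beside 2.58%). The groups did not overlap in 15 li loci with females higher (beside 4.92% of all tested loci) and in 26 with males higher (8.52%, beside 4.93%). Since 3 animals satisfy the filter, 5 li loci passed it in the 3 animals of 1 sex alone and had to differ (1 in females, 4 in males). Among the other 300 the counts without overlap were 14 and 22 (4.67% and 7.33%, beside 4.21% and 4.20% of all loci that passed in both sexes), and with quantile normalization of all 305 they were 20 and 19. At an unadjusted limma p under 0.05 the other 300 held 4 loci higher in females and 14 higher in males. That is 1.33% and 4.67%, beside 2.05% and 2.06% of all loci that passed in both sexes. The median female minus male difference was −0.03 for the li loci and for all tested loci. Oligodendrocyte markers moved with sex in the same tables. Of 5 such markers 3 (MBP, MOG and MAG) had a plain-named locus, and these summed to 348 to 482 TPM in females and to 80.7 to 236 TPM in males, without overlap. With the MBP li loci added, the sums were 3259, 2922 and 2605 TPM in females 1, 3 and 4 and 1428, 851 and 336 TPM in males 1, 4 and 5. Limma called none of the 3, and the part of this difference in the li levels was not tested.

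The lowest p belonged to RPL35li8, of a large subunit family, with 7.79, 13.1 and 18.3 TPM in the females and 51.1, 24.8 and 33.2 TPM in the males. All males were above all females, with a female minus male difference of −1.42 ± 0.36 (SE) in log2(TPM + 1). RPL21li93 ran the other way, with 19.6, 19.8 and 16.9 TPM in the females and 8.75, 11.7 and 10.3 TPM in the males, a difference of 0.82 ± 0.24. RPL21li138 had 0.531, 0.0707 and 0.189 TPM in the females and 3.70, 1.52 and 2.68 TPM in the males. RPL21li73 had 0.714, 0.0184 and 0.0102 TPM in the females and 3.05, 1.42 and 4.12 TPM in the males. RPS11li2 was listed at 0 in every male and had 0.538, 1.27 and 0.881 TPM in the females, so it passed the filter through the females alone and had to differ, and its rank is no result. The adjusted p by limma and the Benjamini-Hochberg method was 0.926 for each of these 5 loci, so none of the differences passed the test.

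The RPL21 family was looked at further after these values were seen, because 3 of the 5 loci of lowest p belong to it. RPL21 is a large subunit protein whose short intronless copies are numerous in mammals. The family summed to 918, 873 and 2093 TPM in the females and 1134, 1837 and 1461 TPM in the males. Its lead RPL21li115, on chromosome 27 at 1074909 to 1102096, had 376, 314 and 1432 TPM in the females and 209, 1396 and 888 TPM in the males. It was low in females 1 and 3 and male 1 and high in female 4 and males 4 and 5, so its split crossed the sexes (exact permutation p = 1). These are the same 3 animals that were high in striatum markers and the same 3 that were low, and the part of that difference in the level of RPL21li115 was not tested. RPL21li189, on chromosome 8, had 282, 435 and 538 TPM in the females and 501, 225 and 313 TPM in the males.

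The other 48 RPL21 loci summed to 253, 117 and 109 TPM in the females and 404, 211 and 251 TPM in the males (difference −129, exact permutation p = 0.3). Male 1 was the highest animal for 22 of the 48, female 1 and female 3 for 7 each, male 5 for 8, female 4 for 3 and male 4 for 1. Of the 50 expressed RPL21 loci 10 were higher in males at an unadjusted p under 0.05 (20%), against 2.35% of the li loci of the other families and 2.58% of all tested loci. Among the 10, RPL21li101 and RPL21li25 passed the filter through the males alone and had to be higher in males. The choice of this family came from the same contrast, and the loci share sequence and are not independent, so this count supports no statement about the family. It fell to 2 of 44 (4.55%, beside 4.74% of all tested loci) without male 1, to 3 of 41 (7.32%, beside 2.05%) without female 3 and to 5 of 46 (10.9%, beside 1.98%) without female 4. The fits without males 1 and 5 and of the 3 animals low or high in striatum markers leave 1 animal in a sex. No count is given for them. In log2(TPM + 1), the median female minus male difference of the RPL21 loci was −0.175 over all 6 animals. This median was −0.227 without males 1 and 5, −0.260 in the 3 low animals and −0.632 in the 3 high ones.

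**Figure D5:**
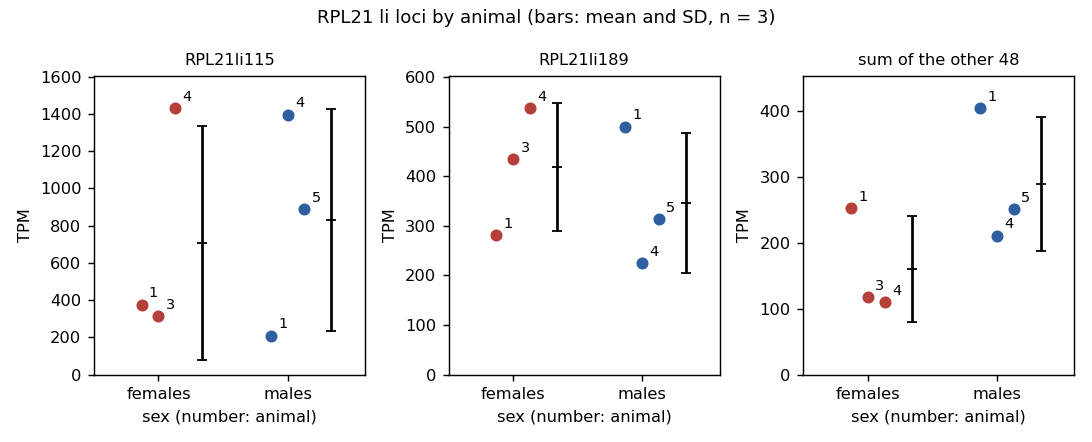
TPM in each animal, by sex and animal number, for RPL21li115, RPL21li189 and the sum of the other 48 expressed RPL21 li loci, with the mean and SD of each sex beside the points (n = 3). RPL21li115 ranges from 209 to 1432 TPM with both sexes at both ends, and the sum of the other loci is highest in male 1, at 404 TPM.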

How the data were processed

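The authors enriched polyadenylated RNA, sequenced it as paired 150 bp reads, mapped the reads to the TS_3.0 genome with HISAT2 2.2.1, assembled transcripts in each animal with StringTie 2.2.1, joined the assemblies to the reference annotation and quantified the result for every animal separately, without pooling. The tables deposited hold TPM, FPKM and coverage per locus, and no read counts. Deposited TPM and FPKM are scaled to the library, and the authors' coverage gives average depth, not scaled. TPM keeps no depth, so no counting intervals were computed.

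TPM was summed over entries of 1 gene ID and chromosome. The filter was 0.1 TPM, reached in 3 animals at least. Female minus male differences of log2(TPM + 1) were fitted by limma 3.58.1 (R 4.3.3) without covariates, using a trend of variance on mean, over 30238 loci, leaving out 2 male-only segments (chromosome X from 4542400 to 6144400, chromosome 26 before 3132930), where 0 expressed li loci lie. Benjamini-Hochberg adjustment ran over all of them, and an adjusted p under 0.1 was called. The fit was tested on simulated data. Summed levels were compared between the sexes with exact permutation tests (two-sided). Other values came from Python 3.11.15, numpy 2.4.6, pandas 2.3.3, scipy 1.17.1 and matplotlib 3.10.9.

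The members, lists and tests were chosen with earlier results of these data known. Loci are named if among the 15 of highest mean, the 5 of lowest sex p, the 5 of largest and smallest spread, the 5 families with most expressed loci, the 3 plain-named loci of highest mean, the edges of the filter and the extremes of span. Other loci were named after their values were seen. Loci above their plain-named locus were to be named too, but as 233 qualified they are given as a count, and plain-named loci of lowest mean, many at 0, likewise. Alternatives were other pseudocounts, filters and scalings, FPKM, separate entries, a replicate block and each animal left out. Leaving out males 1 and 5 together, keeping the 3 animals high or the 3 low in striatum markers, and using short loci alone were added after the data were seen. Some genes of the lists are not reported here by name.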

Additional observations from a re-analysis of the deposited data

How the results depend on the processing

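No li locus was called between the sexes by limma in the 18 alternatives with 4 or more animals, and the lowest adjusted p of any was 0.332. Among these, the fit without males 1 and 5 leaves male 4 as the only male and is no test of sex. The fits of 3 animals alike in striatum markers have a single animal in 1 sex, assumed to vary like the others, and are no test of sex. They passed 1 li locus each, RPS23li4 (high in male 1 alone) without female 4 and males 4 and 5 and RPL37li2 (low in female 4 alone) without females 1 and 3 and male 1, among 56 of 21031 and 26 of 20219 loci. Without 1 animal, 3 to 12 li loci were higher in females and 6 to 16 in males at an unadjusted p under 0.05, or 1.05% to 4.23% and 2.11% to 5.63%, beside 1.65% to 5.05% and 1.80% to 4.74% of all tested loci. The li loci without overlap between the sexes were then 22 to 33 and 32 to 52, where a smaller group overlaps less easily. Of the 5 li loci of lowest p, RPS11li2, RPL21li73 and RPL21li138 failed the filter in some of the 20 alternatives and could be fitted in 14, 17 and 19. The summed li difference ranged from −928 to 2957 TPM when each animal was left out, turning negative without female 4 (−928) and male 5 (−569), and was −238 for loci under 1500 bp alone and −3531 without female 4 and males 4 and 5. The plain-named sum (−72.0) ranged from −343 to 151 and turned positive without female 3 (151), without male 4 (130) and in FPKM (1.33). The li share of ribosomal protein TPM stayed higher in females, from 0.145 to 1.11 percentage points, when each animal was left out. This difference was 1.77 points without males 1 and 5. In the 3 animals low in striatum markers it was 0.481 points, and in the 3 high ones 0.153.

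The number of expressed li loci fell to 171 at 1 TPM in 3 animals and to 171 at 0.1 TPM in all 6, was 277 to 287 without 1 animal, and was 192 without females 1 and 3 and male 1. Under the same 2 filters the median span was 9056 and 8389 bp, and it was 8133 and 7761 bp in the 3 animals low and the 3 high in striatum markers. The median within-sex SD of log2(TPM + 1), 0.394 over all 6 animals, was 0.449 and 0.360 under the 2 filters and 0.280 and 0.222 in those 2 groups of animals. The median SD was 0.348 to 0.396 without 1 animal, 0.341 without males 1 and 5, and 0.818 with a pseudocount of 0.1.

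Females and males share only the numbers 1 and 4, which name different animals. Deviations from the group means correlated at −0.00475 for number 1 and 0.0378 for number 4, so the numbers pair no samples. With a replicate block 0 li loci were called, the male-higher li loci at an unadjusted p under 0.05 went from 16 to 4 (1.31%, beside 2.16% of all tested loci), and those of RPL21 from 10 to 1 of 50 (2%). Over the animals of shared number the differences were 1165 TPM for the li sum, 0.508 points for the share and −36.3 TPM for the plain-named sum. TPM keeps no depth, and low values of short loci rest on few reads.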
